A study of Homo sapiens with 9 samples.

Results

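The genes for 7 transcription factors of the endoderm, *SOX17*, *SOX7*, *FOXA1*, *FOXA2*, *FOXQ1*, *HNF4A* and *HHEX*, were examined in human extra-embryoids (hEEs), aggregates of human pluripotent stem cells with an inner embryonic and an outer hypoblast-like compartment. They were chosen by symbol, and each symbol matched 1 of the 36601 genes in the count tables of both libraries. SOX17 and SOX7 are SOXF factors, which act in endoderm and in vessels. FOXA1 and FOXA2 are forkhead factors that can open closed chromatin at endoderm enhancers, and FOXQ1 is a further forkhead factor. HNF4A is a nuclear receptor that drives lipoprotein and clotting genes in liver and visceral endoderm, and HHEX is a homeobox repressor of the anterior visceral endoderm and the liver bud. The hypoblast is the extra-embryonic endoderm that lines the yolk sac. Its anterior part secretes antagonists of Nodal, BMP and WNT, such as CER1, LEFTY1 and DKK1.

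The hEEs were made from wild-type ESI017 human embryonic stem cells, an established line, which were kept on mouse feeder cells in hEP medium, aggregated in a medium for spontaneous differentiation and moved to mIVC2 medium at day 3. Structures with visible inner and outer compartments were picked, pooled over cultures at day 4 (D4) and at day 6 (D6), and each pool gave 1 droplet library of 3′ transcript ends. With 1 library per day no difference has a replicate check, day and library cannot be told apart, and no test was made. Levels are unique molecular identifiers (UMIs) of a gene per 1000000 UMIs of a group of cells (CPM), with exact 95% Poisson intervals in parentheses that cover counting error only. Intervals of a ratio are conditional binomial and those of a share Clopper-Pearson, also at 95% and for counting error only. As 3′ counts are not scaled to gene length, levels are compared between cells and not between genes.

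The D4 library held 151712246 UMIs in 10943 called cells and the D6 library 150320228 in 11483. Cells with 3430 to 27500 UMIs and at most 10% mitochondrial UMIs were kept, 9151 at D4 and 10097 at D6, and 27 of the kept barcodes occurred in both libraries. The embryonic gate (*POU5F1* of at least 5 UMIs, *SOX2* of at least 1, *FN1* of at most 2) held 3716 and 5054 of these cells. The hypoblast gate (*FN1* of at least 3, *SOX2* of 0, *POU5F1* of at most 5) held 4061 and 3567, of which 558 and 116 had at least 2 UMIs of *CER1* and are called CER1 cells. The median depth was 15157.5 UMIs per cell in the embryonic and 11012 in the hypoblast gate at D4, and 14225.5 and 10902 at D6, so shares of cells with a UMI are given after each cell was thinned to 3430 UMIs.

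The gates carried the markers of their names. Of 10 hypoblast markers 9 at D4 and 10 at D6 were at least 2-fold higher in the hypoblast gate than in the embryonic gate, and 6 of 8 embryonic markers were at least 2-fold lower at D4 and 6 at D6. Of 7 anterior visceral endoderm markers 5 at D4 and 6 at D6 were at least 2-fold higher in CER1 cells than in the other hypoblast gate cells. So were 1 of 6 mesoderm markers at D4 and 4 at D6. At D6 the CER1 cells were thus not set apart by anterior visceral endoderm markers alone. In the hypoblast gate the 9 endothelium markers summed to 10.9 CPM at D4 and 11.4 at D6, and the 6 mesoderm markers to 35.7 and 106, mostly *MIXL1*. The 5 germ cell markers summed to 111 and 121 CPM, with *NANOS3* at 7 and 6 UMIs, and the 7 trophoblast markers to 223 and 226, nearly all *GATA3*, with *GCM1* and *VGLL1* at 0 on both days. The part of these cell types in the results was not tested.

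Upstream sequences are shown for the members with an entry in the RefSeq promoter table (GRCh38.p14), because the members shown differed together between the gates and because *HNF4A* has a pair of start sites that 3′ counts cannot separate. RefSeq places *FOXA1* at chr14:37589552-37595249 (minus strand), *FOXA2* at chr20:22580998-22585490, *FOXQ1* at chr6:1312098-1314758, *HNF4A* at chr20:44355699-44434596 and *HHEX* at chr10:92689955-92695647. Each run is the 250 bases before a start site, 5′ to 3′ on the strand of the gene, chr14:37595250-37595499 on the minus strand for *FOXA1* and, on the plus strand, chr6:1311848-1312097 for *FOXQ1*, chr10:92689705-92689954 for *HHEX*, and chr20:44355449-44355698 and chr20:44400989-44401238 for *HNF4A*. Capitals mark matches, on either strand, to a motif of HNF4, of the GATA factors or of HNF1 that is spelled out after the sequences.
FOXA1: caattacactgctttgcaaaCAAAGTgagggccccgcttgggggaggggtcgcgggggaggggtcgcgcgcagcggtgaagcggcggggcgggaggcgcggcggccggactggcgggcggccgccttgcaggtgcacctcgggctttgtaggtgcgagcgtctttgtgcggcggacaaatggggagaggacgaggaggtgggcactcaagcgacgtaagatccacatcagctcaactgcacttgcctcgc
FOXQ1: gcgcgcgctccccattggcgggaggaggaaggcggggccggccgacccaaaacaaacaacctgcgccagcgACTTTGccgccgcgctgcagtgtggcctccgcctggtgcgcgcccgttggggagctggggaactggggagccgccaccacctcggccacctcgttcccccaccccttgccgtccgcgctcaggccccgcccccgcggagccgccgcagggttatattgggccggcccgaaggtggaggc
HHEX: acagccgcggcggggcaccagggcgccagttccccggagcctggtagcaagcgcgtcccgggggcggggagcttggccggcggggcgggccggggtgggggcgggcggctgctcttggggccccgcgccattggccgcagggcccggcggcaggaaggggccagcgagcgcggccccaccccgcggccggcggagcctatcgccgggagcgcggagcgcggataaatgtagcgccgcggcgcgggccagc
HNF4A, upstream start: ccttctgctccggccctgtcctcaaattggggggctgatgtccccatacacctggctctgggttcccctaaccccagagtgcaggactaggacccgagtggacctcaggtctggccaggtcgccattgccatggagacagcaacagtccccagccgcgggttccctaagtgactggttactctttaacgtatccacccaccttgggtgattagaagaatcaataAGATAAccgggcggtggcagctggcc
HNF4A, downstream start: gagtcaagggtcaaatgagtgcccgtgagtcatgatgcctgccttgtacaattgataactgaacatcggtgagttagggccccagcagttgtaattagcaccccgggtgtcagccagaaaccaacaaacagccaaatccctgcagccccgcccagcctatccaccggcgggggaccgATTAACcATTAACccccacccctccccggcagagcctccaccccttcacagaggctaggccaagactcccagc

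The *FOXA1* and *FOXQ1* windows each held 1 match to the HNF4 motif CAAAGT, which 3629 of 35116 RefSeq windows of the same length also held. The window of the upstream *HNF4A* start held 1 match to the motif taken for the GATA factors, which was spelled AGATAA, which was found in 3219 windows. The window of the downstream *HNF4A* start held 2 matches to the HNF1 motif, spelled GTTAAT, which was found in 2188 windows. On both strands a forkhead core was searched as TGTTTA and was found in 3860 of all windows but in none of these. Likewise a SOX core searched as ACAATG was found in 3261 of all windows and in none of these, and a start site box searched as TATAAA was found in 3763 of all windows and in none of these. G and C made up 81.2% of the *HHEX* window, 74.0% of *FOXQ1* and 67.2% of *FOXA1*, where the median window had 58.0%. The *HNF4A* windows were close to that median, at 58.4% and 58.0%. A match describes letters and is not a binding site.

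Of the 7 genes, 6 were at least 2-fold higher in the hypoblast gate than in the embryonic gate on both days, and *SOX7* was the exception. By the same rule, with at least 10 UMIs over both gates, 15.2% of 20214 genes were higher at D4 and 14.7% of 20708 at D6. The median log2 ratio over the 7 genes was 5.26 at D4 and 6.70 at D6, beside -0.05 and -0.18 over all genes compared. With gates set without fixed counts the log2 ratios of *FOXA1*, *FOXA2*, *FOXQ1* and *HNF4A* lay between 3.87 and 4.93 in place of 5.26 to 7.15, and without doublets those of *FOXA1*, *FOXA2* and *FOXQ1* at D6 were 7.98, 7.77 and 7.32 in place of 7.15, 6.82 and 6.70. Stricter gates gave 7.43 for *FOXA2* at D6. In thinned cells the *FOXQ1* log2 ratio at D4 was 8.02 (5.53 to 13.33) in place of 5.73, with 1 UMI in the embryonic gate.

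**Figure D1:**
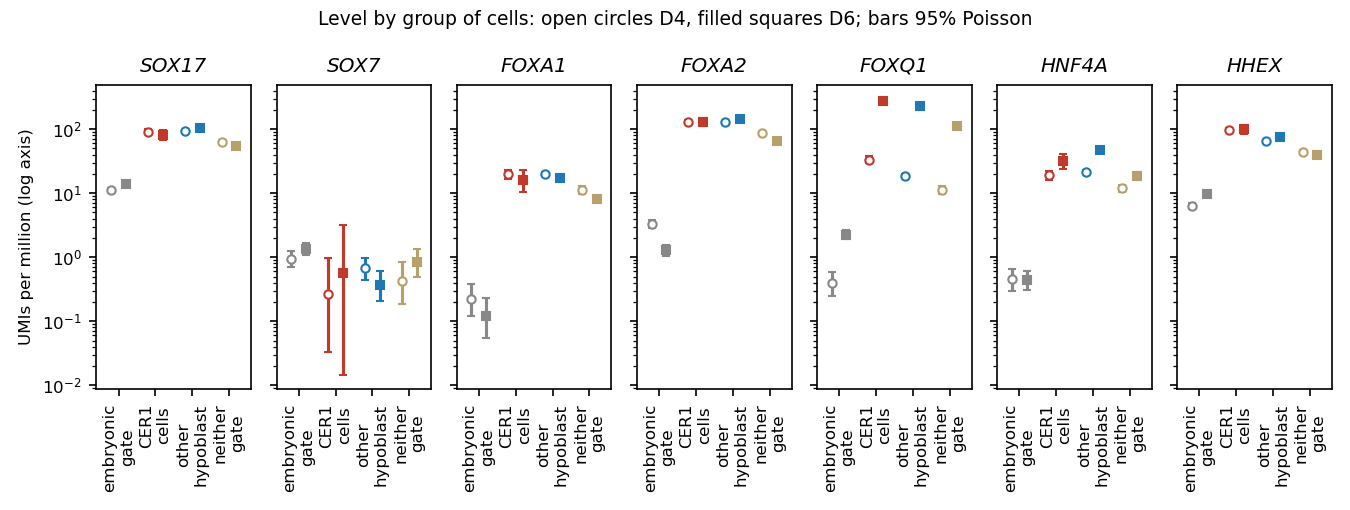
CPM (log axis) of each gene in the embryonic gate, the CER1 cells, the other hypoblast gate cells and the cells in neither gate at D4 and D6, with 95% Poisson intervals. The genes other than *SOX7* sit far above their embryonic gate level in both hypoblast groups, and *FOXQ1* is higher at D6 than at D4 in each group.

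*SOX17*, which specifies endoderm and marks the hypoblast, lies at chr8:54457935-54460892 on the same build. In the hypoblast gate it stood at 92.9 (90.2 to 95.7) CPM at D4 and 102 (98.9 to 105) at D6, and in the embryonic gate at 11.3 (10.4 to 12.2) at D4 and 13.7 (12.9 to 14.6) at D6. The gates differed by 8.25-fold (7.60 to 8.97) and 7.42-fold (6.93 to 7.95), the smallest ratios of the 6 genes on both days. After thinning, 27.2% of hypoblast gate cells had a *SOX17* UMI at D4 and 28.6% at D6, against 3.77% and 4.73% of embryonic gate cells.

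Besides *SOX7*, the members with the highest embryonic gate level relative to the hypoblast gate were *SOX17* and *HHEX*. The embryonic gate level of *SOX17* was 12.1% (11.1 to 13.2) of its hypoblast gate level at D4 and 13.5% (12.6 to 14.4) at D6, and that of *HHEX* was 9.14% (8.19 to 10.2) and 12.7% (11.7 to 13.7). The abundant hypoblast transcript *APOA1* stood at 1.28% and 0.752% by the same measure and *GATA6*, an endoderm factor gene, at 1.40% and 0.980%. The percentages of *SOX17* and *HHEX* lay above those of both genes by more than counting error. The *SOX17* UMIs in the embryonic gate lay in 558 cells at D4 and 901 at D6, with at most 4 in a cell. Without the cells that Scrublet called doublets the *SOX17* percentages were 11.9% and 13.2%.

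*SOX7*, the other SOXF member and in the mouse a marker of parietal endoderm, lies at chr8:10723768-10730511 and was found in few cells. The hypoblast gate held 29 UMIs at D4 and 16 at D6, or 0.606 (0.406 to 0.871) and 0.383 (0.219 to 0.622) CPM. The embryonic gate held more, 55 and 101 UMIs, or 0.952 and 1.35 CPM. The log2 ratio of hypoblast over embryonic gate was -0.65 (-1.35 to 0.02) at D4, where the interval includes 0, and -1.82 (-2.68 to -1.05) at D6, where 22.2% of genes were at least 2-fold lower. At D4 no member was at least 2-fold lower, where 16.5% of genes were. After thinning, 0.295% and 0.168% of hypoblast gate cells had a *SOX7* UMI against 0.377% and 0.356% of embryonic gate cells. The thinned log2 ratio of the gates at D6 was -1.08 (-2.70 to 0.31), whose interval includes 0. *SOX18*, the remaining SOXF gene, stood at 4.64 and 3.26 CPM in the hypoblast gate and 0.363 and 0.374 in the embryonic gate.

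*FOXA2*, a pioneer factor gene of endoderm, stood at 129 (126 to 132) CPM at D4 and 145 (141 to 149) at D6 in the hypoblast gate. In the embryonic gate it stood at 3.36 (2.90 to 3.86) CPM at D4 and 1.28 (1.04 to 1.57) at D6. The gates were thus 38.4-fold (33.3 to 44.6) and 113-fold (92.5 to 140) apart. The embryonic gate level was 2.60% of the hypoblast gate level at D4 and 0.884% at D6. By this measure *APOA1* stood at 1.28% and 0.752% and *GATA6* at 1.40% and 0.980%. Whether the *FOXA2* UMIs of the embryonic gate arose in its cells was not tested. A *FOXA2* UMI was found in 33.4% of thinned hypoblast gate cells at D4 and 36.1% at D6, and in 1.05% and 0.336% of embryonic gate cells. The noncoding RNA *LINC00261*, which lies beside *FOXA2*, differed between the gates by 53.6-fold (43.1 to 67.6) and 113-fold (84.7 to 153).

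*FOXA1*, its close relative, stood at 19.7 (18.5 to 21.0) CPM at D4 and 17.1 (15.8 to 18.4) at D6 in the hypoblast gate. The embryonic gate held 13 *FOXA1* UMIs at D4 and 9 at D6, or 0.225 and 0.120 CPM. The ratios were 87.7-fold (51.1 to 165) and 142-fold (74.3 to 312), and their wide intervals overlap. The embryonic gate level was 1.14% and 0.705% of the hypoblast gate level, near the 1.28% and 0.752% of *APOA1*. *FOXA3*, the remaining FOXA gene, was well above 0 in both gates, at 97.7 and 91.5 CPM in the hypoblast gate and 25.1 and 25.0 in the embryonic gate.

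*FOXQ1* was the member that differed most between the days. In the hypoblast gate it stood at 21.1 (19.8 to 22.4) CPM at D4 and 234 (230 to 239) at D6, 11.1-fold (10.4 to 11.9) higher, which ranked 90 of 19306 genes. The D6 over D4 ratio was 8.29-fold (7.10 to 9.70) in the CER1 cells, 9.78-fold (8.48 to 11.3) in cells in neither gate and 5.67-fold (3.66 to 9.20) in the embryonic gate. Its embryonic gate level was 0.398 CPM at D4 and 2.26 at D6, which was 52.9-fold (35.1 to 83.8) and 104-fold (89.1 to 122) below the hypoblast gate. Of its 169 embryonic gate UMIs at D6, 61 lay in 73 cells called doublets, and without doublets the level was 0.403 CPM at D4 and 1.47 at D6. Its embryonic gate level was 1.89% and 0.964% of its hypoblast gate level, where that of *GATA6* was 1.40% and 0.980%. Of the cells in neither gate 15.9% at D4 and 21.4% at D6 were called doublets.

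More hypoblast gate cells had *FOXQ1* at D6, and these cells held more of it. The share of thinned cells with a UMI was 4.88% (4.23 to 5.58) at D4 and 34.5% (32.9 to 36.1) at D6, and the positive cells held a mean of 1.43 and 2.15 UMIs. At D6, 100 thinned cells had 5 or more UMIs and held 22.1% of the *FOXQ1* UMIs, while 2336 of 3567 cells had none. At D4, 2 cells had 5 or more. The variance over the mean of thinned counts, which is 1 where cells differ by counting alone, was 1.80 and 2.42 for *FOXQ1*. It was 1.14 and 1.32 for *HHEX*, 1.09 and 1.19 for *FOXA2*, 1.05 and 1.08 for *SOX17*, 1.02 and 1.08 for *FOXA1*, and 1.01 and 1.06 for *HNF4A*. Of these 6 genes *FOXQ1* had the largest variance over the mean on both days. The measure also depends on the level of a gene and was not corrected for it. At D4 the mean thinned count of *FOXQ1* was 0.0699, near 0.0660 for *FOXA1* and 0.0707 for *HNF4A*. At D6 the means ran from 0.0611 for *FOXA1* to 0.742 for *FOXQ1*, so values near 1 need not mean an even spread.

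**Figure D2:**
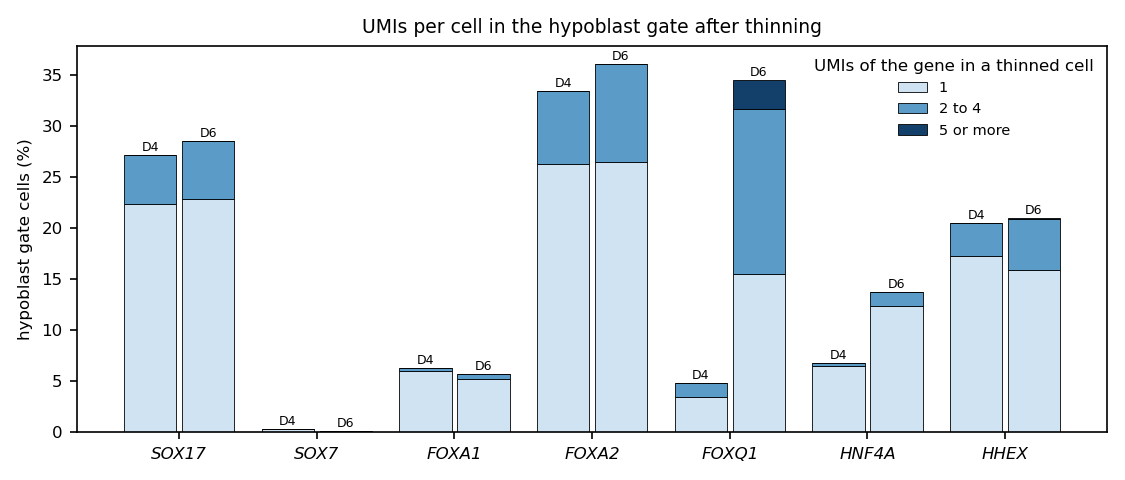
Percent of hypoblast gate cells with 1, 2 to 4, or 5 or more UMIs of each gene at D4 and D6 after every cell was thinned to 3430 UMIs. The *FOXQ1* bar reaches 4.88% at D4 and 34.5% at D6, and 2.80% of cells at D6 had 5 or more UMIs.

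*HNF4A* was the other member at least 2-fold higher at D6 in the hypoblast gate. It stood at 21.2 (19.9 to 22.5) CPM at D4 and 45.9 (43.8 to 48.0) at D6, 2.17-fold (2.01 to 2.34) higher, and 6.80% (6.04 to 7.61) and 13.8% (12.7 to 14.9) of thinned cells had a UMI. The embryonic gate held 26 and 33 UMIs, or 0.450 and 0.441 CPM. The gates were thus 47.0-fold (31.9 to 72.4) and 104-fold (73.8 to 152) apart. The embryonic gate level was 2.13% and 0.961% of the hypoblast gate level, where that of *GATA6* was 1.40% and 0.980%. The D6 over D4 ratio of *HNF4A* was 1.68-fold (1.21 to 2.31) in the CER1 cells and 1.57-fold (1.33 to 1.86) in cells in neither gate. The antisense RNA *HNF4A-AS1* had 4 UMIs in the hypoblast gate at D4 and 12 at D6.

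*HHEX* stood at 70.0 (67.7 to 72.4) CPM at D4 and 76.1 (73.5 to 78.8) at D6 in the hypoblast gate and at 6.40 (5.77 to 7.09) at D4 and 9.63 (8.94 to 10.4) at D6 in the embryonic gate. The gates differed by 10.9-fold (9.82 to 12.2) and 7.90-fold (7.28 to 8.58). After thinning, 20.5% and 21.0% of hypoblast gate cells had a UMI, and 2.10% and 3.19% of embryonic gate cells. In the 350 D6 embryonic gate cells with at least 2 UMIs of *TFAP2A*, a gene of amnion and surface ectoderm, *HHEX* stood at 16.9 (13.6 to 20.9) CPM and *SOX17* at 9.54 (7.06 to 12.6), above and below their level in the whole embryonic gate. In the 81 such cells at D4 *HHEX* stood at 11.9 (6.82 to 19.4) CPM and *SOX17* at 14.2 (8.54 to 22.1), and the *SOX17* interval includes its whole gate level. Cells with a UMI of both *NANOS3* and *TFAP2C*, genes of primordial germ cells that also express *SOX17*, numbered 2 and 14, and they held 0 and 4 *SOX17* UMIs, too few to set a level.

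Between D4 and D6 in the hypoblast gate 2 of the 7 genes, *FOXQ1* and *HNF4A*, were at least 2-fold higher, where 6.4% of 19306 genes were. None of the 7 was at least 2-fold lower, where 6.02% were. The D6 over D4 log2 ratio of *SOX17* was 0.13 (0.07 to 0.20), that of *FOXA2* 0.17 (0.12 to 0.22) and that of *HHEX* 0.12 (0.05 to 0.19), small differences whose intervals lie above 0. *FOXA1* was lower, at -0.21 (-0.35 to -0.07), and *SOX7* at -0.66 (-1.64 to 0.27) could not be told from 0. The median over the 7 was 0.13, beside -0.01 over all genes.

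**Figure D3:**
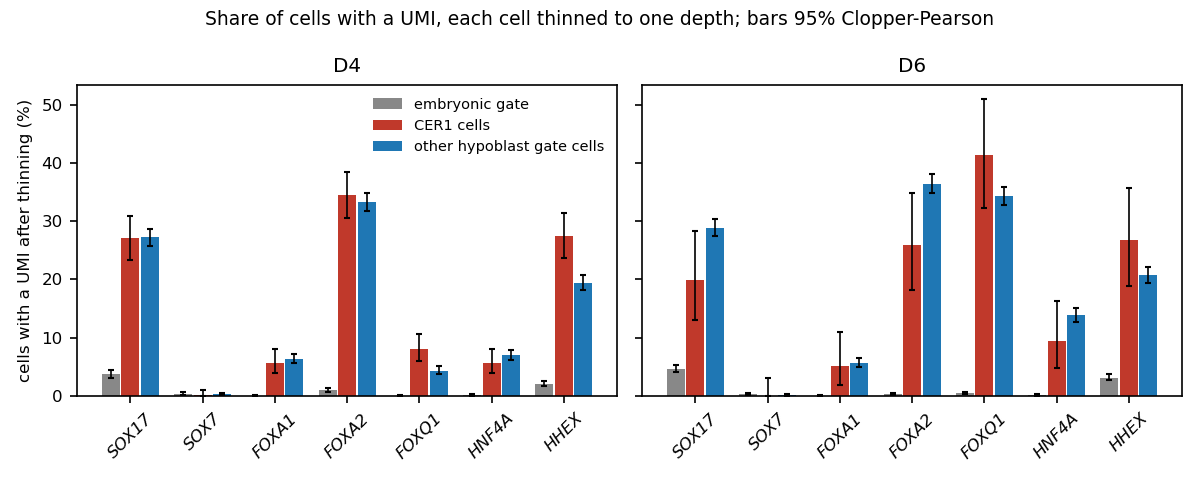
Percent of cells with a UMI of each gene after thinning every cell to 3430 UMIs, in the embryonic gate, the CER1 cells and the other hypoblast gate cells at D4 and D6, with 95% Clopper-Pearson intervals. At D4 *HHEX* was found in 27.4% of CER1 cells and 19.4% of the other hypoblast gate cells.

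The CER1 cells were compared with the other hypoblast gate cells to ask which members differ in cells with an anterior visceral endoderm marker. None of the 7 genes was at least 2-fold higher in CER1 cells on either day, where 4.15% of 17647 genes were at D4 and 7.25% of 17225 at D6. *SOX7* was past 2-fold lower at D4 on 2 UMIs in CER1 cells, with a log2 ratio of -1.30 (-4.42 to 0.69), where 6.65% of genes were lower, and no member was at D6, where 8.31% were. The 6 mesoderm markers moved with the split at D6, with a sum of 329 CPM in CER1 cells and 96.5 in the others, and their part was not tested.

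*FOXQ1* and *HHEX* were higher in CER1 cells by less than 2-fold, although the log2 ratio of *FOXQ1* at D4 was 1.16 under stricter gates. *FOXQ1* stood at 33.5 (29.4 to 37.9) CPM in CER1 cells and 18.8 (17.5 to 20.2) in the others at D4, 1.78-fold (1.54 to 2.06), and at 277 (253 to 303) and 233 (228 to 237) at D6, 1.19-fold (1.09 to 1.31). *HHEX* stood at 98.1 (91.1 to 106) and 64.9 (62.4 to 67.4) at D4, 1.51-fold (1.39 to 1.64), and at 99.3 (85.1 to 115) and 75.1 (72.4 to 77.8) at D6, 1.32-fold (1.13 to 1.54). Each of these 4 intervals lies above 1 by counting error only. They are too narrow for *FOXQ1*, whose variance over the mean was 2.42 in the hypoblast gate at D6. After thinning, 41.4% (32.3 to 50.9) of CER1 cells at D6 had a *FOXQ1* UMI and 34.3% (32.7 to 35.9) of the others. For *HHEX* these shares were 26.7% (18.9 to 35.7) and 20.8% (19.5 to 22.2), and the intervals of both genes overlap. At D4 *HHEX* was at 64.1 CPM in cells with no *CER1* UMI, 71.5 with 1 and 70.1 with 2 to 4. It was at 104 CPM with 5 to 9 and 121 with 10 or more. *FOXQ1* was at 18.3, 22.2, 24.9, 16.4 and 48.7 CPM in the same classes, highest in the 232 cells with 10 or more. At D6 neither gene was highest in that class. *HHEX* was at 74.6 CPM with no *CER1* UMI, 90.5 with 1, 109 with 2 to 4, 117 with 5 to 9 and 74.4 (53.8 to 100) with 10 or more. In these classes *FOXQ1* was at 232, 250, 309, 289 and 227 (190 to 269) CPM.

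The other members apart from *SOX7* were level or lower in CER1 cells. At D6 *SOX7* had 1 UMI in CER1 cells and a log2 ratio of 0.61 (-4.79 to 3.31), too few UMIs to set a level. At D4 the log2 ratios were -0.02 (-0.14 to 0.10) for *SOX17*, 0.02 (-0.25 to 0.27) for *FOXA1*, 0.03 (-0.07 to 0.13) for *FOXA2* and -0.18 (-0.45 to 0.07) for *HNF4A*, and each interval included 0. At D6 *HNF4A* stood at 32.0 (24.1 to 41.5) CPM in CER1 cells and 46.5 (44.4 to 48.6) in the others, a log2 ratio of -0.54 (-0.95 to -0.16). *SOX17* stood at 81.6 (68.8 to 96.1) and 103 (99.8 to 106) CPM, a log2 ratio of -0.33 (-0.58 to -0.09). It was lowest, at 38.1 (23.9 to 57.6) CPM, in the 33 cells with 10 or more *CER1* UMIs. Their median depth was 16408 UMIs against 10788 in cells without *CER1*. *FOXA2* was also lowest in that class, at 93.4 (70.2 to 122) CPM against 145 (142 to 149) without *CER1*. No member was found in 12.9% (7.42 to 20.4) of CER1 cells at D6 before thinning, against 2.90% (2.36 to 3.51) of the others. Scrublet called 3.45% of these CER1 cells and 0.348% of the others doublets. The 6 mesoderm markers summed to 329 CPM in these CER1 cells and 96.5 in the others. The part of doublets and of mesoderm-like cells in these differences was not tested.

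Whether the members were found in the same cells was asked with the ratio of thinned hypoblast gate cells with both genes of a pair to the number given by the product of their shares. The ratio is 1 for genes spread without regard to each other, and its median over the 15 pairs with at least 5 cells by that product was 1.00 at D4 and 1.02 at D6, or 0.938 at D6 under stricter gates. No pair with *SOX7* reached that number. At least 1 member was found in 68.1% of hypoblast gate cells at D4 and 80.9% at D6, and at least 2 in 25.4% and 43.3%. In the embryonic gate at least 2 members were found in 0.135% and 0.257% of cells.

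**Figure D4:**
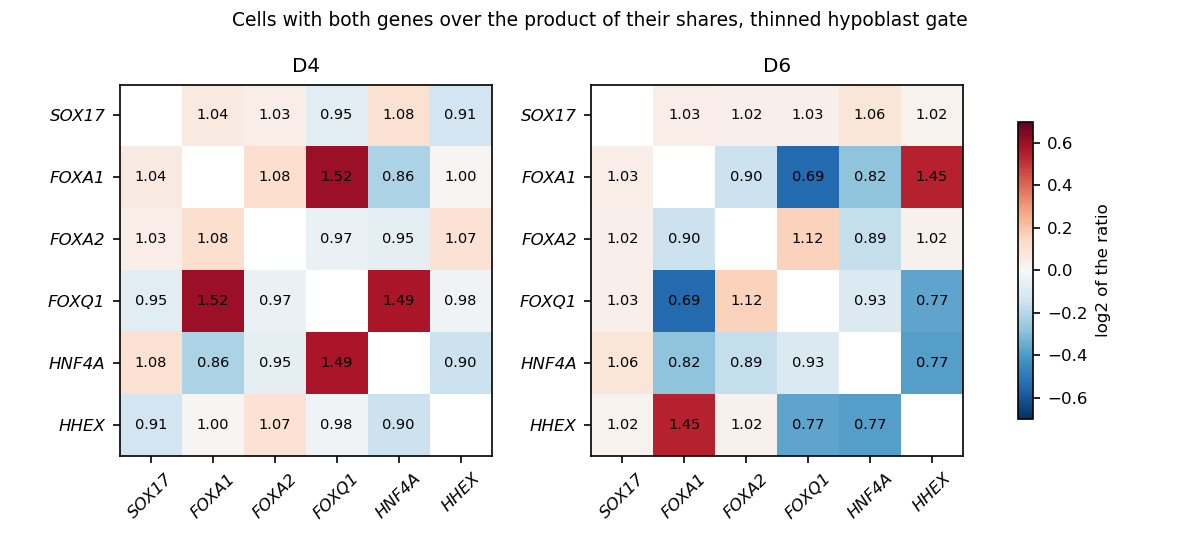
Ratio of thinned hypoblast gate cells with both genes of a pair to the product of their shares at D4 and D6, with the ratio printed in each square and colour on a log2 scale. Most pairs lie near 1, and *FOXA1* with *FOXQ1* stands at 1.52 at D4 and 0.69 at D6.

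A few pairs at D6 lay away from 1. *HHEX* was found in 16.2% (14.2 to 18.4) of *FOXQ1*-positive and 23.5% (21.8 to 25.3) of *FOXQ1*-negative cells, and in 16.1% (13.0 to 19.6) of *HNF4A*-positive and 21.8% (20.3 to 23.3) of *HNF4A*-negative cells. It was found in 30.5% (24.3 to 37.4) of *FOXA1*-positive and 20.4% (19.1 to 21.8) of *FOXA1*-negative cells. At D6 *HHEX* was thus scarcer with *FOXQ1* and *HNF4A* and more frequent with *FOXA1*, by intervals that do not overlap. The ratios over the 15 pairs ran from 0.685 to 1.45 at D6 and from 0.859 to 1.52 at D4. *FOXQ1* was found in 23.6% (18.0 to 30.1) of *FOXA1*-positive and 35.2% (33.6 to 36.8) of *FOXA1*-negative cells at D6, while at D4 the shares were 7.39% (4.51 to 11.3) and 4.71% (4.05 to 5.43), with intervals that overlap. At D6 *FOXQ1* was more frequent with *FOXA2*, in 38.7% (36.0 to 41.4) of positive and 32.2% (30.2 to 34.1) of negative cells. *SOX17* was spread evenly over the members other than *SOX7* at D6, with ratios from 1.02 to 1.06. The pairs were looked at 15 a day, and the intervals are not adjusted for that number.

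The levels of other endoderm genes were compared between thinned hypoblast gate cells with and without a UMI of each member. Negative cells include many whose transcripts were missed at this depth, the cells of a day come from 1 library, and the log2 ratios carry counting error only. Their intervals are too narrow for genes uneven over cells, such as *APOA1*, whose variance over the mean was 24.7 in the hypoblast gate at D6. Counts of intervals above or below 0 are given without the share over all genes, so they describe the listed genes only. Abundant genes have narrower intervals than scarce ones. Where genes were picked by these ratios, their intervals are not adjusted for the choice.

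*HNF4A*-positive cells held more of the liver and yolk sac genes, most of which encode secreted proteins such as apolipoproteins and clotting factors. The list was drawn up from genes with HNF4A sites known in liver, so it is not neutral with regard to *HNF4A*. At D6, in 491 positive and 3076 negative cells, 13 of 17 intervals lay above 0 and 1 below, and the median log2 ratio was 0.83, beside -0.00417 over all genes. *AFP*, which encodes a fetal albumin-like protein of the yolk sac, stood at 49.3 CPM in positive and 9.95 in negative cells, a log2 ratio of 2.31 (1.88 to 2.74). *FGB*, a fibrinogen chain gene, stood at 137 CPM in positive and 43.1 in negative cells, a log2 ratio of 1.66 (1.43 to 1.90). *MTTP*, whose product loads lipid onto apolipoprotein B, stood at 25.5 CPM in positive and 10.6 in negative cells, a log2 ratio of 1.27 (0.72 to 1.79). The retinoic acid hydroxylase gene *CYP26A1* was lower, at -0.30 (-0.39 to -0.22). Of 13 anterior visceral endoderm genes 6 intervals lay below 0 at D6 and 1 above. At D4 the median was 0.37 over 16 liver and yolk sac genes, with 3 intervals above 0 and 0 below.

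*FOXQ1*-positive cells held less of most of these genes at D6, although the sum over the list was higher. In 1231 positive and 2336 negative cells, 12 of 17 liver and yolk sac intervals lay below 0 and 3 above, with a median log2 ratio of -0.81, beside -0.06 over all genes. *TTR*, a thyroid hormone carrier gene, stood at 3.08 CPM in positive and 23.5 in negative cells, a log2 ratio of -2.93 (-3.86 to -2.12). *FGB* was at -2.26 (-2.64 to -1.89) and *AFP* at -1.15 (-1.72 to -0.62). The genes above 0 were *APOA1* at 0.32 (0.30 to 0.34), *APOA2* at 0.31 (0.26 to 0.36) and *APOA4* at 0.48 (0.34 to 0.62). The list summed to 16124 CPM in positive and 13472 in negative cells. At D4 the median over 16 genes was 0.28, with 4 intervals above 0 and 0 below.

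The 5 genes highest on both days in *FOXQ1*-positive cells, by the lower of the day ratios among 10691 genes, were *IGFBP5*, *GSC*, *GDF3*, *NRG1* and *DKK1*. *IGFBP5*, a gene for a binding protein of insulin-like growth factors, had log2 ratios of 2.54 (2.22 to 2.85) at D4 and 2.25 (2.09 to 2.42) at D6. *GSC*, a homeobox gene of the organizer, had 1.68 (1.15 to 2.18) at D4 and 1.60 (1.29 to 1.91) at D6. *GDF3*, a Nodal-related ligand gene, had 2.23 (1.55 to 2.86) at D4 and 1.53 (1.41 to 1.65) at D6. *NRG1*, an ERBB ligand gene, had 1.72 (1.30 to 2.12) at D4 and 1.44 (1.21 to 1.66) at D6, and *DKK1*, a WNT antagonist gene, had 1.37 (0.81 to 1.89) at D4 and 1.71 (1.44 to 1.97) at D6. Of 13 anterior visceral endoderm genes 7 intervals at D4 and 8 at D6 lay above 0, and 0 and 1 below.

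**Figure D5:**
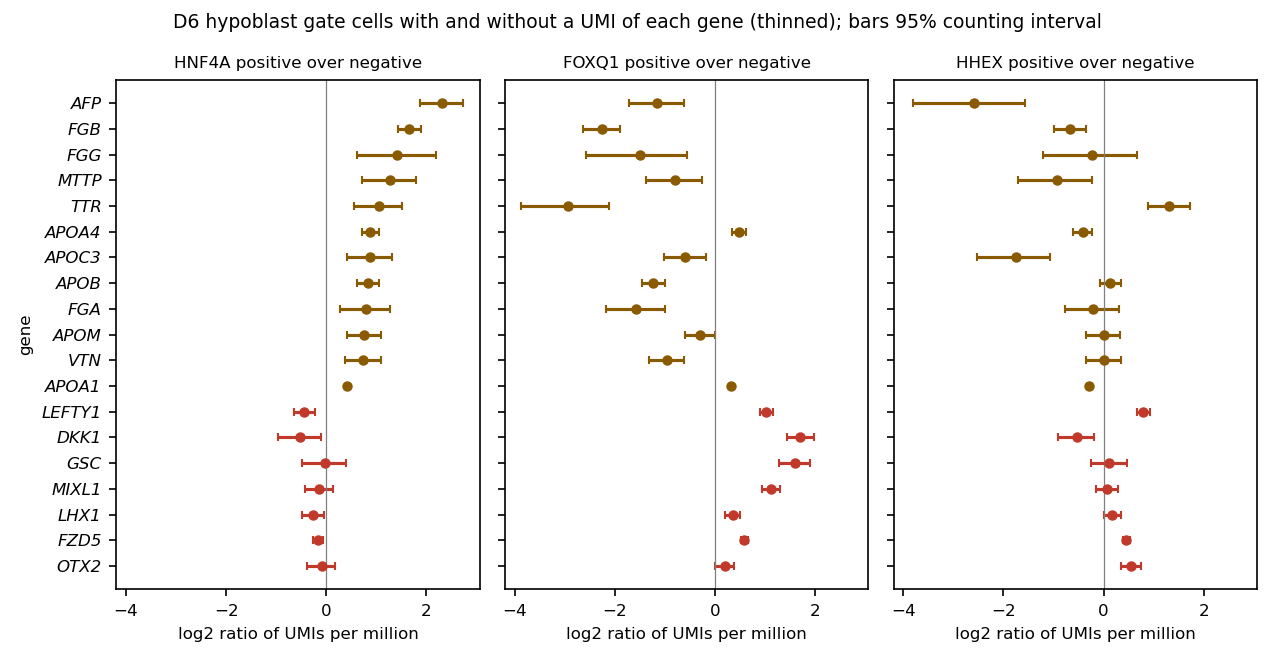
log2 ratio of CPM in D6 hypoblast gate cells with a thinned UMI of *HNF4A*, *FOXQ1* or *HHEX* over cells without one, for liver and yolk sac genes and for genes of the anterior visceral endoderm or the primitive streak, partly chosen after their values were seen, with 95% counting intervals. *AFP* stands at 2.31 for *HNF4A* and *TTR* at -2.93 for *FOXQ1*.

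*HHEX*-positive cells held more of the Nodal antagonist genes *LEFTY1* and *LEFTY2*. In 834 positive and 3227 negative cells at D4, *LEFTY1* stood at 270 CPM in positive and 121 in negative cells, a log2 ratio of 1.16 (1.03 to 1.29), and in 749 and 2818 cells at D6 the ratio was 0.80 (0.66 to 0.93). *LEFTY2* had log2 ratios of 0.98 (0.88 to 1.07) and 0.83 (0.35 to 1.29). Both are among the 5 genes highest by the lower of the day ratios, with *SEMA6D*, *C2CD5* and *C11orf98*. Of 13 anterior visceral endoderm genes 8 intervals lay above 0 at D4 and 7 at D6, and 0 and 1 below. Of 17 liver and yolk sac intervals 7 lay below 0 at D6 and 3 above, with a median log2 ratio of -0.22, and of 16 at D4 1 lay below and 3 above. *AFP* was lower in *HHEX*-positive cells at D6, at -2.58 (-3.81 to -1.57), and *TTR* higher, at 1.32 (0.89 to 1.73).

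*FOXA1*-positive cells showed no common direction over the liver and yolk sac genes at D6, with 3 of 17 intervals above 0 and 3 below. The list summed to 11829 CPM in the 203 positive and 14538 in the 3364 negative cells, and its median log2 ratio was 0.33. *TTR* was among the genes above 0, at 76.1 CPM in positive and 12.8 in negative cells, a log2 ratio of 2.57 (2.09 to 3.03).

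*SOX17*-positive and *FOXA2*-positive cells had medians between -0.20 and 0.24 over the 3 endoderm lists on both days. With *FOXA2* at D6, 8 of 17 liver and yolk sac intervals lay below 0 and 1 above, while of 13 anterior visceral endoderm genes 5 lay above and 0 below, and of 20 other endoderm factors 6 above and 0 below. With *SOX17* at D6 the same lists had 3 above 0 and 2 below, 0 above 0 and 2 below, and 3 above 0 and 0 below. *CER1* was lower at D6 in cells with *SOX17*, at -1.33 (-1.82 to -0.87), and in cells with *FOXA2*, at -1.19 (-1.61 to -0.80), while at D4 it was at 0.25 (0.14 to 0.36) in cells with *FOXA2*. The D6 values rest on few cells, since 14 of 3567 held 51.8% of the thinned *CER1* UMIs. The variance over the mean of *CER1* was 8.89 at D6. It was larger at D4, where 172 of 4061 cells held 76.4% of the thinned *CER1* UMIs. The counting intervals of *CER1* are therefore too narrow on both days. In the split by *CER1* itself the log2 ratio of *FOXA2* was 0.03 (-0.07 to 0.13) at D4 and -0.16 (-0.36 to 0.03) at D6, and both intervals include 0. For *FOXA1*, *FOXA2*, *SOX17* and *HNF4A* the gene that ranked highest by the lower of the day ratios was *WDR24*, *ALG10B*, *SP6* and *SMLR1*. Of these *SMLR1* had intervals above 0 on both days, with a lower limit of 0.02 at D4. It was picked as the highest of 10691 genes by these same ratios. The intervals are not adjusted for that choice, so they do not set it apart. *SOX7* had 12 and 6 positive cells, too few for a comparison.

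Further genes of the endoderm set the members in context. Of 24 other endoderm transcription factors 23 were compared between the gates, and 15 at D4 and 16 at D6 were at least 2-fold higher in the hypoblast gate and 4 and 3 lower. The highest log2 ratios at D6 were those of *TBX3* at 6.82, *GATA6* at 6.67 and *GATA4* at 6.40, near those of the FOX members, and that of *ONECUT1* was lowest, at -4.19. Between the days 0 were at least 2-fold lower at D6 and 4 higher, namely, by log2 ratio, *SOX9* at 2.99, *MIXL1* at 1.60, *ONECUT2* at 1.58 and *GATA6* at 1.30. In CER1 cells 7 at D4 and 8 at D6 were at least 2-fold higher, led by *GSC* at 3.33 and 1.72. At least 2-fold lower were 2 at D4 and 0 at D6.

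Most liver and yolk sac genes were higher at D6. *HNF4A* was too, but the list was drawn up from genes with HNF4A sites, and a link between them was not tested. Of 21 compared between the days in the hypoblast gate, 15 were at least 2-fold higher at D6 and 1 lower, where 6.4% and 6.02% of all genes were. The median log2 ratio was 2.55, beside -0.01 over all genes. *AFP* had 19 UMIs at D4 and 672 at D6, 40.5-fold (25.7 to 67.7), *APOC3* 24 and 846, 40.4-fold (26.9 to 63.4), and *FGB* 76 and 2037, 30.7-fold (24.4 to 39.1). Between the gates 14 of 19 at D4 and 18 of 21 at D6 were at least 2-fold higher in the hypoblast gate, and 1 on each day was lower. In CER1 cells 10 of 17 were at least 2-fold lower at D4 and 1 higher, and 16 of 20 were lower at D6 and 0 higher. *AFP* had 0 UMIs in the 116 CER1 cells at D6, which allows up to 1.71 CPM, against 16.8 in the others.

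Of 13 anterior visceral endoderm genes 8 at D4 and 9 at D6 were at least 2-fold higher in the hypoblast gate and none was lower. Between the days 2 were at least 2-fold higher, *DKK1* and *SFRP5*, and 2 lower, *LEFTY2* from 293 to 16.9 CPM and *SHISA2* from 36.2 to 9.84. In CER1 cells 6 at D4 and 7 at D6 were at least 2-fold higher, and 1 on each day was lower. *LEFTY1* and *LEFTY2* led at D4 with log2 ratios of 4.02 and 3.37.

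The other forkhead and SOX genes showed no common direction between the gates. Of 32 other FOX genes compared at D4, 10 were at least 2-fold higher in the hypoblast gate and 9 lower, and of 32 at D6, 9 were higher and 14 lower. *FOXP2* stood at 18.6 and 19.6 CPM in the hypoblast gate and 0.484 and 0.454 in the embryonic gate, and *FOXD3*, a pluripotency factor gene, at 0.376 and 0.168 against 18.8 and 19.8. Of 14 other SOX genes, 5 were higher and 4 lower at D4, and 3 and 4 at D6, with *SOX2* lower by the definition of the gate.

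The pattern of each member over 8 points, the embryonic gate, the CER1 cells, the other hypoblast gate cells and the cells in neither gate on both days, was set beside that of 16646 genes by Pearson's r of log2(CPM + 1). The points share 2 libraries and many genes follow the split of the gates, so r is a description. The nearest gene was *FRZB* for *FOXA1* (r = 0.9996), *LINC00261* for *FOXA2* (0.999), *COA8* for *FOXQ1* (0.995), *S100A10* for *HNF4A* (0.999), *S100A13* for *SOX17* (0.999), *KCNK12* for *HHEX* (0.997) and *WRN* for *SOX7* (0.982). Among the members r was highest for *FOXA1* with *SOX17*, at 0.994, and lay between 0.782 and 0.911 for *FOXQ1* with the members other than *SOX7*. It was negative for each pair with *SOX7*.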

How the data were processed

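Single-cell libraries of hEEs at D4 and D6, 1 per day, were analysed, and 7 bisulfite libraries were not used here. The deposited tables hold raw UMI counts per gene and called cell, which the authors made with Cell Ranger (6.0.1 in the file header) on hg38, and the submitters' processing notes also name Seurat 4.0.1 and R 4.0.3. UMIs were summed over the cells of a gate. A gene with at least 10 UMIs over both groups was compared and called at 2-fold, and a count of 0 allows up to 3 counts. Intervals and limits cover counting error only. The ratios were tested on simulated Poisson counts, which hold no unevenness between cells, so that check does not bear on it. Scrublet (scanpy 1.11.5) marked 267 kept cells at D4 and 405 at D6, which were left out only in an alternative. The genes named are the members, up to 4 genes per list and comparison with the largest ratios, the 3 nearest by pattern and the 5 highest in positive cells. Other names were chosen after their values were seen. The members and lists were chosen with earlier results of these data known. Python 3.11.15, numpy 2.4.6, pandas 2.3.3 and scipy 1.17.1 were used.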

Additional observations from a re-analysis of the deposited data

Results flagged for a closer look

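*FOXA2* was picked out because its D6 over D4 log2 ratios lay on opposite sides of 0 in the gates. Those of *HNF4A* and *SOX7* also did, but for each of these genes an interval included 0. The ratio of *FOXA2* was 0.17 (0.12 to 0.22) in the hypoblast gate and -1.39 (-1.76 to -1.03) in the embryonic gate. In the embryonic gate *FOXA2* had 194 UMIs at D4 and 96 at D6. The difference between the gates was not tested, as each day has 1 library. Of these UMIs 22 at D4 lay in 34 cells called doublets and 47 at D6 in 73. Without these cells the embryonic gate level was 3.01 CPM at D4 and 0.668 at D6. These levels were 2.33% and 0.459% of the hypoblast gate level, where those of *APOA1* without doublets were 1.19% and 0.588%.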

How the results depend on the processing

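The number of members at least 2-fold higher in the hypoblast gate (6 on each day), at D6 (2) and lower at D6 (0) was the same under each of the 9 alternatives run, which were other cell filters, gates and scalings, thinned cells, no doublets and a purer gate. The number at least 2-fold higher in CER1 cells, 0 on both days, was 1 at D4 under stricter gates, under gates without fixed counts and with *CER1* of at least 5 UMIs, where *FOXQ1* had log2 ratios of 1.16, 1.04 and 1.02. It was 1 at D6 under stricter gates and with *CER1* of at least 5 UMIs, where *SOX7*, with 1 UMI in the CER1 cells as reported, had 1.12 and 1.51. The median pair ratio at D6, 1.02, was 0.938 under stricter gates. The cause was not tested. Under gates without fixed counts the log2 ratios of the gates for *FOXA1*, *FOXA2*, *FOXQ1* and *HNF4A* lay between 3.87 and 4.93, against 5.26 to 7.15 as reported. Median-of-ratios scaling moved the D6 log2 ratio of *SOX17* from 2.89 to 3.05. The D6 over D4 log2 ratio ranged from 3.26 to 3.50 for *FOXQ1* and from 1.09 to 1.13 for *HNF4A*. No member called at 2-fold changed direction. The share of genes at least 2-fold higher in CER1 cells at D6 was 31.0% over all genes with a UMI and 3.21% over those with at least 50, and at D4 10.1% and 1.81%, with 2.15% lower over the latter. Between the days 13.4% were higher and 14.5% lower over all genes with a UMI, and 2.87% lower over those with at least 50. No paired analysis was possible because each day has 1 library, and no replicate could be left out.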
